A study of Mus musculus with 10 samples.

Results

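The genes described here are 7 matrix metalloproteinases, Mmp2, Mmp8, Mmp9, Mmp12, Mmp13, Mmp14 and Mmp19, and 3 tissue inhibitors of metalloproteinases, Timp1, Timp2 and Timp3. They were chosen by symbol, and all 10 were found among the 21938 gene rows of the deposited tables. RNA was sequenced from tumour-associated macrophages that had been isolated by FACS from mammary tumours of C57BL/6 mice. Every mouse, controls included, had received PyMT mammary tumour cells in 2 mammary glands, and tumours grew for 5 weeks. The control group held 3 libraries (wild-type tumour cells in wild-type mice), the Mertk KO group 4 libraries (wild-type tumour cells in mice labelled as macrophage-specific MerTK knockouts) and the Ptdss1 knockdown group 3 libraries (Ptdss1 knockdown tumour cells in wild-type mice). Mertk is a receptor through which macrophages take up dying cells, and Ptdss1 makes phosphatidylserine, the lipid that marks such cells. The Cre driver of the knockout, the deleted exons, the age of the mice and the way the knockdown was made are not stated in the labels. Nor do the labels tie the libraries of a group to different mice, and p-values then reflect only how far these libraries vary, which may be technical.

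Matrix metalloproteinases are zinc enzymes that cut collagen, elastin and other proteins of the extracellular matrix, and most are secreted as inactive precursors. Timp proteins bind the active site of such enzymes and block them, so the ratio of proteases to Timp proteins helps set how much matrix can be cut. Tumour-associated macrophages are a known source of both kinds of protein in mammary tumours. RNA levels do not show how much enzyme was secreted or activated.

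Mmp13, Mmp12 and Mmp8 lie close together on the plus strand of chromosome 9 (GRCm38), at 7272514 to 7283331, 7344381 to 7369499 and 7558456 to 7568485. Mmp13 and Mmp12 were among the 4 member genes with the highest levels per length, Mmp8 was near the bottom of the order, and Timp1 was the one member whose control libraries lay apart from both other groups. Timp2 and Mmp14 were also among those 4. The 250 bases before the RefSeq start (GRCm38.p6) of Mmp13 (chr9:7272264-7272513, plus strand), of the second listed start of Mmp12 (chr9:7347124-7347373, plus strand) and of Timp1 (chrX:20869916-20870165, plus strand) are shown, 5′ to 3′, with matches to the AP-1 motif TGANTCA in capitals. Of the member windows searched, only the Mmp13 and Mmp12 windows shown held this motif.
Mmp13: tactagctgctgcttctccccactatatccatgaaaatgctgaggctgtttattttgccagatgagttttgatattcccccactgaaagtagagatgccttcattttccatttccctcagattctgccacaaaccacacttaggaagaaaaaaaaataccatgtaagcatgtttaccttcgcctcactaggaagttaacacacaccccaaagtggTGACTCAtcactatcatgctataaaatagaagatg
Mmp12: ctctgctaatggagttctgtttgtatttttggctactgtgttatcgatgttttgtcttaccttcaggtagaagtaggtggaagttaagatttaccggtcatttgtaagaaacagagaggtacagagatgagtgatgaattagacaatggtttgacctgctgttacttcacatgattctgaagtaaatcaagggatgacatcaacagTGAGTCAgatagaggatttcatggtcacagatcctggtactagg
Timp1: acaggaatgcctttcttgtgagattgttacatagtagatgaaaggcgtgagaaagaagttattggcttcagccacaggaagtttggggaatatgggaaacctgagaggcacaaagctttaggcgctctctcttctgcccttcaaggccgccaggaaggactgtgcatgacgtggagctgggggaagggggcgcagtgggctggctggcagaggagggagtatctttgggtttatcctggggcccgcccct

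AP-1 is the dimer of Fos and Jun proteins, long studied at protease promoters. Mmp13 had 1 match, TGACTCA, beginning 35 bases before the start, and a TATAAA match beginning 16 bases before it. Mmp12 had 1 match, TGAGTCA, beginning 44 bases before its second start. No TGANTCA was found, on either strand, in the same window of Timp1, Mmp8, Mmp14, Timp2, Timp3 or the first Mmp12 start. Of 32851 RefSeq promoter windows of 250 bases, 6.75% held TGANTCA and 12.4% held TATAAA, each searched on both strands. A window held AGGAAG, a site of Ets factors, in 29.5% of cases, and the Timp1 window held 2 such matches. Promoter sequences were matched for 7 of the 10 members. The matches are a description of these letters only.

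Library totals ran from 10292592 to 25815071 reads. Ptdss1 knockdown replicate 1 had 6995 genes with at least 10 reads and control replicate 2 had 9066, against 9585 to 11523 in the other 8 libraries. Mertk itself was at 9.26 to 10.97 on the log2 scale in control and at 8.95 to 10.63 in Mertk KO, and a value for the whole gene checks no deletion of single exons. Ptdss1 was targeted in the tumour cells, so its level in macrophages checks nothing. The 11 macrophage markers (among them Adgre1, Csf1r and Cd68) were read in every library. The summed level of the NK and T cell markers was lower in Mertk KO, at a log2 of 7.83 to 9.45 against 10.64 to 11.06 in control. Klrk1 differed by -2.08 (SE 0.77) and Nkg7 by -4.75 (SE 2.07) on the log2 scale (limma adjusted p = 1.0 for each). Each lay below all control libraries in 4 of 4 Mertk KO libraries, as for 2.62% of all genes. The T cell genes Cd3e (0.60, SE 1.94) and Cd3g (-1.95, SE 2.11) overlapped with control, and Ncr1 had 0 reads in both groups. The part of the NK and T cell difference in the values below was not tested. Levels below are the deposited log2(normalised reads + 1), and in sorted bulk RNA, fewer cells that express a gene and less RNA per cell cannot be told apart.

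Timp2, Mmp13, Mmp14 and Mmp12 had the highest levels of the 10 genes. Per kilobase of annotated exon, the median over the 10 libraries was 1114 normalised reads for Timp2, 1085 for Mmp13, 796.6 for Mmp14 and 779 for Mmp12. Timp1 followed at 398, Mmp2 at 229.8 and Mmp19 at 71.1. Mmp8 at 2.17, Timp3 at 1.75 and Mmp9 at 0.103 were the lowest. The order holds only loosely, because the ranges of every neighbouring pair overlapped. Timp2 was above Mmp13 in 6 of 10 libraries and Mmp12 above Timp1 in 7 of 10, while Mmp19 was above Mmp8 in 10 of 10. Mmp12 and Mmp14 have long annotated exons (7237 and 5960 bases in all), and per kilobase of the transcript with the longest coding sequence Mmp14 led at 1829, before Mmp12 at 1564 and Timp2 at 1170.

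**Figure D1:**
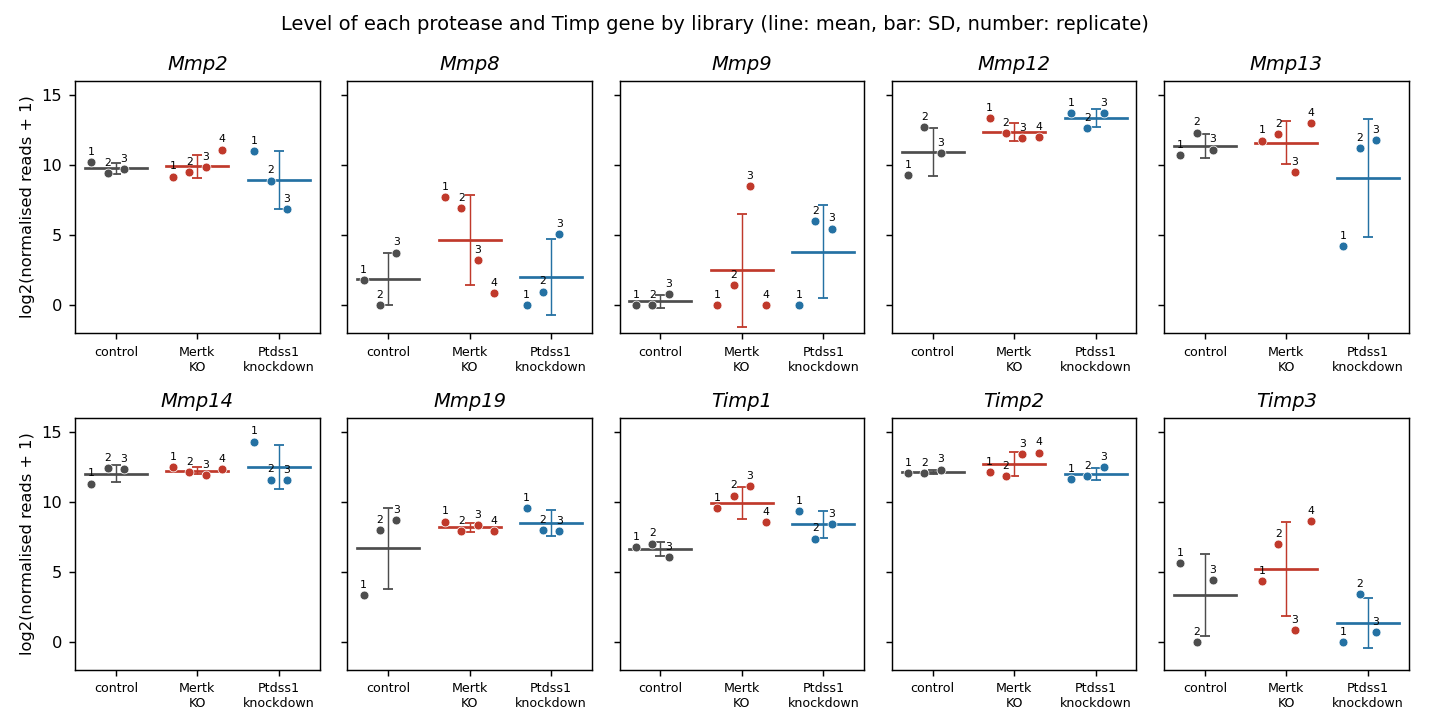
Level of each of the 10 genes in every library, as log2(normalised reads + 1) on the y axis. Points are libraries numbered by replicate, lines are group means and bars are SD (3 control, 4 Mertk KO and 3 Ptdss1 knockdown libraries); the control points of Timp1 lie below every point of the other groups, while each other gene shows overlapping groups.

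Timp1, a secreted inhibitor, was the member that set control apart from both other groups. Control libraries were at log2 levels of 6.75, 7.01 and 6.05, Mertk KO at 9.55, 10.43, 11.12 and 8.52, and Ptdss1 knockdown at 9.35, 7.36 and 8.42. In reads this was 89 to 131 in control, 457 to 2752 in Mertk KO and 174 to 751 in Ptdss1 knockdown. Timp1 was thus above all control libraries in 4 of 4 Mertk KO and 3 of 3 Ptdss1 knockdown libraries, and the last pair of groups overlapped with each other. Group means were 6.60 ± 0.50 (SD, n = 3) in control, 9.91 ± 1.13 (SD, n = 4) in Mertk KO and 8.38 ± 0.99 (SD, n = 3) in Ptdss1 knockdown. Mertk KO minus control was 3.31 (SE 0.89, 95% interval 1.43 to 5.19), rank 8 of 11564 genes by p, but did not pass after adjustment over all genes (limma adjusted p = 1.0). Ptdss1 knockdown minus control was 1.78 (SE 0.96, interval -0.23 to 3.79, limma adjusted p = 0.841), and Mertk KO minus Ptdss1 knockdown was 1.53 (SE 0.89, interval -0.35 to 3.41, limma adjusted p = 0.805). The first difference stayed between 2.90 and 3.77 when each library was left out in turn, and the second between 1.29 and 2.28. When libraries were weighted by how well each followed the fit, Timp1 rose in Mertk KO by 3.48 (SE 0.53, limma adjusted p = 0.00113). Those array weights ran from 0.0730 for Ptdss1 knockdown replicate 1 to 4.35 for Ptdss1 knockdown replicate 3.

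Timp1 (chromosome X, 20870166 to 20874735, plus strand) lies inside Syn1, which runs on the other strand and shares no exon base with it. Syn1 had 0 reads in control, 0 to 73 in Mertk KO and 1 to 121 in Ptdss1 knockdown, and 0 in Mertk KO replicate 3, where Timp1 was highest. Fibroblasts also make Timp1, and the 10 fibroblast markers, Col1a1, Dcn and Pdgfrb among them, summed to 18 to 112 reads in control, 16 to 1318 in Mertk KO and 2 to 369 in Ptdss1 knockdown, with Lum at 0 in all libraries. The Timp1 difference between Mertk KO and control was 3.74 without the 2 Mertk KO libraries that held most of those reads (replicates 2 and 4), and the part of fibroblast RNA in it was not tested. Of the epithelial and tumour cell markers, 10 genes summed to 715 to 3401 reads in Mertk KO and 311 to 803 in control, a log2 summed level of 9.997 to 11.41 against 8.35 to 9.20. Cdh1, an adhesion protein of epithelial cells, had 612 to 1849 of these reads in Mertk KO and 299 to 587 in control, and the keratin gene Krt8 had 1535 in Mertk KO replicate 4. Without Cdh1 the sums overlapped, at 78 to 2183 reads in Mertk KO and 12 to 247 in control, and of the 6 markers tested 3 were above and 3 below control in Mertk KO. In Ptdss1 knockdown that sum was 6 to 1587 reads, and Epcam was at 0 in all control and Mertk KO libraries. The part of epithelial RNA in the Timp1 values was not tested.

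Timp2, which blocks Mmp2 and also takes part with Mmp14 in activating it, had the smallest spread in control of the 10 genes. Its log2 level was 12.05, 12.03 and 12.29 in control, 12.12, 11.83, 13.41 and 13.51 in Mertk KO, and 11.64, 11.83 and 12.45 in Ptdss1 knockdown. Mertk KO replicates 3 and 4 were above every other library, and replicates 1 and 2 lay among or below control. The difference from control was 0.59 (SE 0.46, interval -0.38 to 1.56) in Mertk KO and -0.15 (SE 0.49, interval -1.19 to 0.89) in Ptdss1 knockdown, within the spread of the libraries. Timp2 lies on the minus strand of chromosome 11, at 118301069 to 118355740.

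Timp3, an inhibitor that is held in the matrix, was scarce and uneven. It had 60, 0 and 27 reads in control, 13, 155, 1 and 486 in Mertk KO, and 0, 10 and 1 in Ptdss1 knockdown. On the log2 scale this was 5.64, 0 and 4.37, then 4.33, 6.996, 0.86 and 8.61, then 0, 3.38 and 0.69. The high libraries were Mertk KO replicates 2 and 4, which also had the highest sums of fibroblast markers (1107 and 1318 reads). Of these, Col1a1, Dcn and Pdgfrb were highest in both, Postn was high in replicate 2 and at 0 in replicate 4, and Thy1 was at 0 in both. Col1a2, Col3a1 and Thy1 were highest in Ptdss1 knockdown replicate 2, where Timp3 had 10 reads. The difference between Mertk KO and control was 1.86 (SE 2.05, limma adjusted p = 1.0). It was 0.19 without control replicate 2, which had 0 reads, and -0.75 without Mertk KO replicates 2 and 4. As these were also the highest libraries for Timp3, that fall follows from leaving them out, and the part of fibroblast RNA was not tested. Mertk KO minus Ptdss1 knockdown was 3.84 (SE 2.05, interval -0.47 to 8.16, limma adjusted p = 0.805). Timp3 (chromosome 10, 86300372 to 86349506, plus strand) shares 1733 exon bases with Syn3 on the other strand, and Syn3 had 0 to 9 reads.

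**Figure D2:**
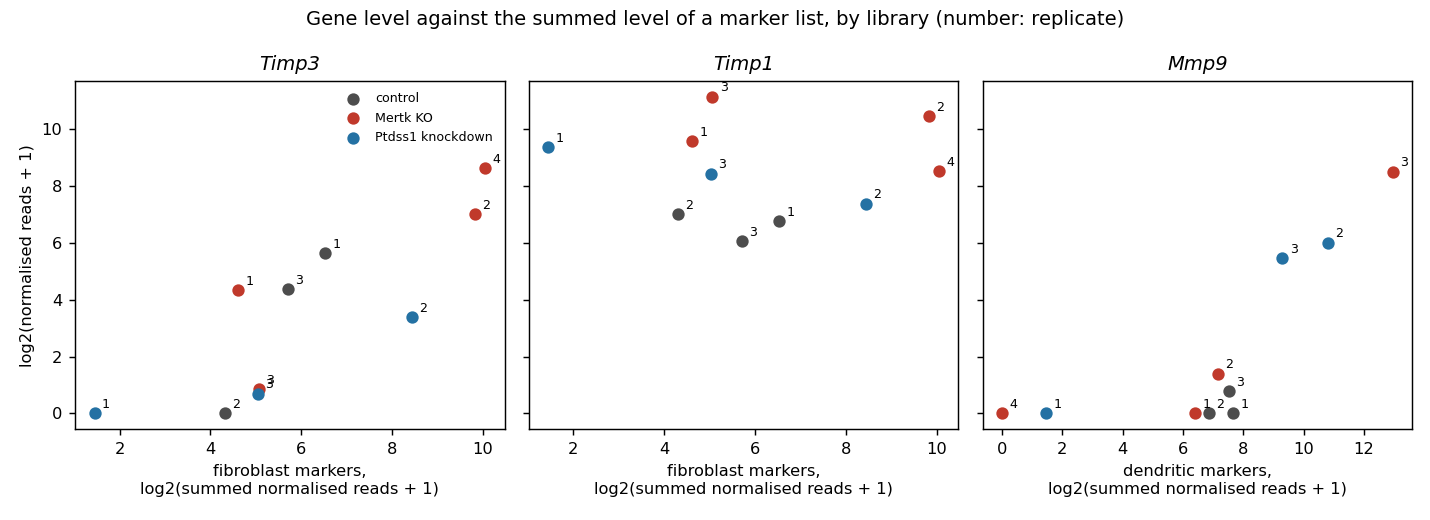
Log2 level of Timp3, Timp1 and Mmp9 (y axes) against the log2 summed level of fibroblast or dendritic cell markers (x axes); points are the 10 libraries, coloured by group and numbered by replicate. Timp3 is highest in Mertk KO replicates 2 and 4, which hold the most fibroblast marker reads, Timp1 is highest in Mertk KO replicate 3, which holds few, and Mmp9 is highest in the 3 libraries with the largest dendritic sum, which in Mertk KO replicate 3 is nearly all Cd209a (9573 of 9785 reads).

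Mmp12, the macrophage elastase, was higher on average in both other groups than in control, but neither difference passed the threshold. Its level was 9.28, 12.73 and 10.85 in control, 13.33, 12.28, 11.91 and 11.99 in Mertk KO, and 13.73, 12.62 and 13.72 in Ptdss1 knockdown. Control replicate 1 was the lowest library, and control replicate 2 lay among the other groups, so the groups overlapped. The means were 10.95 ± 1.73 (SD, n = 3), 12.38 ± 0.65 (SD, n = 4) and 13.36 ± 0.64 (SD, n = 3). Ptdss1 knockdown minus control was 2.41 (SE 0.67, interval 1.00 to 3.81), rank 2 of 11564 genes by p, with 2 of 3 libraries above all control (limma adjusted p = 0.841). Mertk KO minus control was 1.43 (SE 0.63, interval 0.11 to 2.74), with 1 of 4 libraries above all control (limma adjusted p = 1.0). Both depended on the control libraries. Without control replicate 1 the differences were 1.57 and 0.59, and without control replicate 2 they were 3.29 and 2.31. Under array weights, which gave control replicate 2 a weight of 0.281 and control replicate 1 one of 2.18, Mmp12 rose by 3.35 in Ptdss1 knockdown (SE 0.52, limma adjusted p = 0.0368) and by 2.53 in Mertk KO (SE 0.50, limma adjusted p = 0.0478). Among monocyte markers Ccr2, a chemokine receptor, differed by 2.79 between Ptdss1 knockdown and control (SE 1.10, limma adjusted p = 0.841), and the 4 markers had a log2 summed level of 11.79 to 14.70 against 9.73 to 12.52. The part of monocyte RNA in the Mmp12 values was not tested. Mmp12 shares 157 exon bases with Mmp1b on the other strand, which had 0 reads in all libraries.

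Mmp13, a collagenase of fibrillar collagen, spanned a wide range that followed no group. It was at 10.69, 12.32 and 11.11 in control, 11.75, 12.18, 9.47 and 13.003 in Mertk KO, and 4.20, 11.20 and 11.76 in Ptdss1 knockdown. Ptdss1 knockdown replicate 1 had 20 reads, while the other 9 libraries had 876 to 10251. Ptdss1 knockdown minus control was -2.32 (SE 1.58, interval -5.75 to 1.10, limma adjusted p = 0.841), and it was 0.11 without that library. Mertk KO minus control was 0.23 (SE 1.48, interval -2.97 to 3.43). The neighbouring genes on chromosome 9 did not follow each other over the 10 libraries (Pearson r of -0.22 between Mmp12 and Mmp13, a description with no test).

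Mmp14, a membrane-anchored protease that cuts collagen at the cell surface and activates the Mmp2 precursor, was steady in all but 1 library. Its level was 11.30, 12.41 and 12.31 in control, 12.49, 12.11, 11.92 and 12.34 in Mertk KO, and 14.29, 11.59 and 11.52 in Ptdss1 knockdown. The library at 14.29, with 23146 reads, was again Ptdss1 knockdown replicate 1. The difference from control was 0.21 (SE 0.57, interval -0.99 to 1.40) in Mertk KO and 0.46 (SE 0.61, interval -0.82 to 1.74) in Ptdss1 knockdown, which was -0.45 without replicate 1. Mmp14 lies on chromosome 14 at 54431612 to 54445364 (plus strand).

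Mmp2, gelatinase A, is secreted as a precursor that Mmp14 activates. It was at 10.20, 9.40 and 9.68 in control, 9.17, 9.51, 9.86 and 11.10 in Mertk KO, and 10.98, 8.89 and 6.85 in Ptdss1 knockdown. Ptdss1 knockdown thus held the lowest library and, next to Mertk KO replicate 4, the highest. Mertk KO minus control was 0.15 (SE 0.78, interval -1.50 to 1.79) and Ptdss1 knockdown minus control was -0.85 (SE 0.84, interval -2.61 to 0.90), which was -1.89 without Ptdss1 knockdown replicate 1. Mertk KO minus Ptdss1 knockdown was 1.00 (SE 0.78, interval -0.64 to 2.64, limma adjusted p = 0.805), and under array weights it was 2.10 (SE 0.43, limma adjusted p = 0.0286). Without Ptdss1 knockdown replicate 3, the library at 6.85, it was -0.028. Mmp2 lies at 92827291 to 92853420 on chromosome 8 (plus strand).

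Mmp19, a protease of basement membrane proteins, was at 3.31, 7.98 and 8.68 in control, 8.58, 7.88, 8.32 and 7.92 in Mertk KO, and 9.55, 7.97 and 7.90 in Ptdss1 knockdown. Control replicate 1, with 11 reads, stood apart from the other 9 libraries, which had 241 to 863. The difference from control was 1.52 (SE 1.26) in Mertk KO and 1.81 (SE 1.35) in Ptdss1 knockdown, and without control replicate 1 these were -0.16 and 0.14. Mmp19 (chromosome 10, 128790910 to 128800824, plus strand) shares 789 exon bases with Tmem198b on the other strand. Tmem198b had 0 to 353 reads, with 162 in control replicate 1. The library kit is not stated to keep the strand, so reads in the shared bases cannot be told apart.

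Mmp8, the neutrophil collagenase, had 3, 0 and 17 reads in control, 141, 147, 10 and 1 in Mertk KO, and 0, 1 and 53 in Ptdss1 knockdown. It was above control in 2 of 4 Mertk KO libraries, replicates 1 and 2 (log2 levels of 7.70 and 6.92), and the groups overlapped. Mertk KO minus control was 2.82 (SE 1.99, interval -1.36 to 6.995, limma adjusted p = 1.0) and Ptdss1 knockdown minus control was 0.16 (SE 2.12, interval -4.30 to 4.63), and -0.76 without control replicate 2. Neutrophils store Mmp8 and Mmp9 in granules, and the neutrophil genes S100a9, Ly6g, Camp, Lcn2 and Elane were at 0 reads in all 10 libraries. S100a8, also a neutrophil gene, had 0, 0 and 4 reads in control, 69, 28, 35 and 0 in Mertk KO, and 0, 32 and 0 in Ptdss1 knockdown. It was highest in Mertk KO replicate 1, where Mmp8 had 141 reads, and its log2 difference between Mertk KO and control was 3.37 (SE 1.88, limma adjusted p = 1.0), with 3 of 4 libraries above control. Retnlg had 31 reads in Mertk KO replicate 2, where Mmp8 had 147, and 0 elsewhere. Other neutrophil genes were highest in libraries with little Mmp8. Ngp had 85 reads in Ptdss1 knockdown replicate 1, Ltf 44 in Ptdss1 knockdown replicate 2 and Cxcr2 35 in Mertk KO replicate 3. Mmp8 had 0, 1 and 10 reads in these. Csf3r had 485 to 6413 reads. The part of neutrophil RNA in the Mmp8 values was not tested.

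Mmp9, gelatinase B, was read in few libraries. It had 0, 0 and 1 reads in control, 0, 2, 442 and 0 in Mertk KO, and 0, 67 and 70 in Ptdss1 knockdown. It passed the filter of 10 reads in 3 libraries through exactly these 3, Mertk KO replicate 3 and Ptdss1 knockdown replicates 2 and 3. Those libraries also held the most Cd209a. This gene, a lectin of monocyte-derived dendritic cells, had 9573, 1145 and 376 reads in them, 30 in Mertk KO replicate 2 and at most 1 elsewhere. The other 5 dendritic cell markers summed to 212, 755 and 652 reads in the 3 libraries and to 111 to 250 in control. That sum did not set Mertk KO replicate 3 apart. Of these markers, Flt3 had 66, 97 and 5 reads in the 3 libraries and 0 elsewhere. Zbtb46, Xcr1, Clec9a and Ccr7 were also read outside them. The log2 differences from control were 2.21 (SE 2.11) in Mertk KO and 3.55 (SE 2.25, limma adjusted p = 0.841) in Ptdss1 knockdown, the latter 5.46 without Ptdss1 knockdown replicate 1, and the part of dendritic cell RNA in them was not tested. Mmp9 lies on chromosome 2 at 164940780 to 164955850 (plus strand).

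None of the 10 genes passed the threshold (limma, Benjamini-Hochberg adjusted p below 0.05 over all genes tested) in any comparison. Against control, this was 0 of 10 in Mertk KO beside 0.0173% of all genes, and 0 of 10 in Ptdss1 knockdown beside 0%, and it was 0 of 10 between Mertk KO and Ptdss1 knockdown, beside 0%. At an unadjusted limma p below 0.05 there were 2 of 10 (Timp1 and Mmp12, both higher) beside 2.06% of all genes (1.14% higher and 0.917% lower) in Mertk KO. There was 1 of 10 (Mmp12, higher) beside 2.90% (1.60% higher and 1.30% lower) in Ptdss1 knockdown, and 0 of 10 beside 3.73% (2.18% higher and 1.55% lower in Mertk KO) between those groups. Groups without overlap were found for 1 of 10 genes, Timp1, in each comparison with control, where 3.00% of all genes were higher without overlap in Mertk KO and 3.32% in Ptdss1 knockdown. No member was lower without overlap, beside 2.62% and 3.60% of all genes. Between Mertk KO and Ptdss1 knockdown all 10 overlapped, beside 2.91% of all genes higher and 2.32% lower without overlap. Both comparisons use the same 3 control libraries.

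The fold changes of all 10 genes were above 0 in Mertk KO, with a median of 1.47 on the log2 scale. Of all genes 50.9% were above 0, with a median of 0.016. Mmp9 is counted here and below, but it passed the filter only through Mertk KO replicate 3 and Ptdss1 knockdown replicates 2 and 3. Its sign against control in either group therefore follows from the filter. The unadjusted 95% interval left out 0 for 2 of the 10, Timp1 and Mmp12. Leaving out 1 library turned the sign for 4 of them, Mmp2, Mmp13, Mmp14 and Mmp19. In Ptdss1 knockdown 6 of 10 were above 0 (median 0.31, against -0.053 over all genes, of which 48.0% were above 0). Between Mertk KO and Ptdss1 knockdown, 6 of 10 were above 0 (median 0.87, against 0.11 over all genes, of which 54.0% were above 0).

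**Figure D3:**
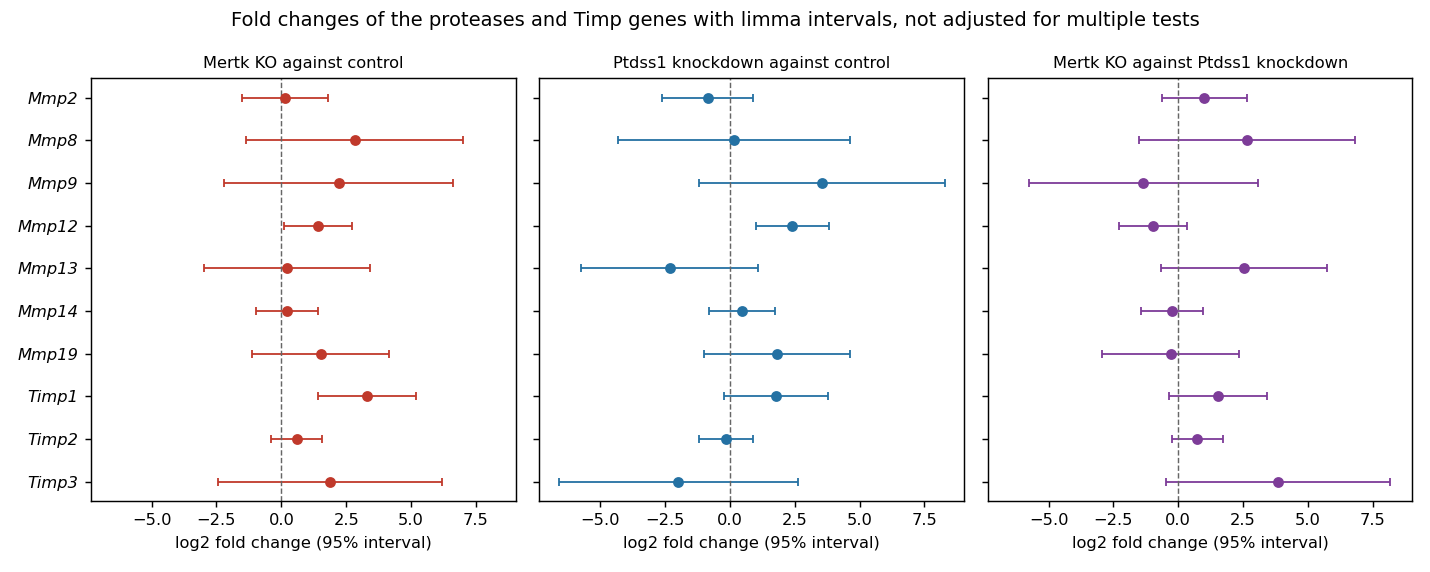
Log2 fold change of each gene (x axis) in the 3 comparisons, with 95% limma intervals that are not adjusted for the number of genes. All 10 points lie above 0 in Mertk KO against control, Mmp9 included, which passed the filter only through libraries outside control. The intervals leave out 0 for Timp1 (1.43 to 5.19) and Mmp12 (0.11 to 2.74) there and for Mmp12 (1.00 to 3.81) in Ptdss1 knockdown against control.

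The balance of proteases and inhibitors was taken as the ratio of the summed level per kilobase of exon of the 7 proteases to that of the 3 Timp genes, a description of RNA with no test. It was 1.22, 3.31 and 1.69 in control, 2.03, 1.40, 0.362 and 1.51 in Mertk KO, and 3.91, 2.23 and 2.07 in Ptdss1 knockdown. Proteases exceeded Timp genes in 9 of 10 libraries, and the exception was Mertk KO replicate 3. The balance does not weigh how well each Timp protein blocks each protease. On the log2 scale the means were 0.92 ± 0.73 (SD, n = 3), 0.16 ± 1.11 (SD, n = 4) and 1.39 ± 0.50 (SD, n = 3). The groups overlapped in the 2 comparisons with control. Between Mertk KO and Ptdss1 knockdown every Mertk KO library was lower, though by little for replicate 1 (log2 balance of 1.02 against 1.05). These groups overlapped when reads were not divided by exon length, when mean log2 levels were used, without Mmp12 and without Timp2. Per kilobase of the transcript with the longest coding sequence they stayed apart, at 1.71 for the highest Mertk KO library against 1.73 for the lowest Ptdss1 knockdown library. Mertk KO minus control was -0.76, and -0.22 without Mertk KO replicate 3. Ptdss1 knockdown minus control was 0.47, and -0.029 when Mmp12 was left out of the sum.

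Summed Timp level was 1213 to 1364 normalised reads per kilobase in control, 1990 to 5297 in Mertk KO and 1122 to 1820 in Ptdss1 knockdown, so every Mertk KO library was above control. Timp1 made up 9.89, 11.8 and 5.37% of that sum in control, 42.5, 62.0, 47.4 and 12.0% in Mertk KO, and 47.2, 16.4 and 21.1% in Ptdss1 knockdown. Control had the 3 lowest shares, and Mertk KO replicate 4, where Timp2 was highest, lay next to them. With Timp2 left out of the inhibitors, the balance difference from control was -2.80 in Mertk KO and -1.06 in Ptdss1 knockdown.

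Among the proteases Mmp12 held 5.79, 23.2 and 11.1% of the summed level in control, 35.2, 19.7, 27.8 and 10.8% in Mertk KO, and 31.0, 34.8 and 49.3% in Ptdss1 knockdown. The Ptdss1 knockdown libraries all lay above control, while Mertk KO overlapped with it. Mmp13 held 35.9 to 47.4% in control, 13.8 to 58.8% in Mertk KO and 0.107 to 35.3% in Ptdss1 knockdown. Mmp14 held 13.03 to 55.5% over all libraries, the highest share being that of Ptdss1 knockdown replicate 1.

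**Figure D4:**
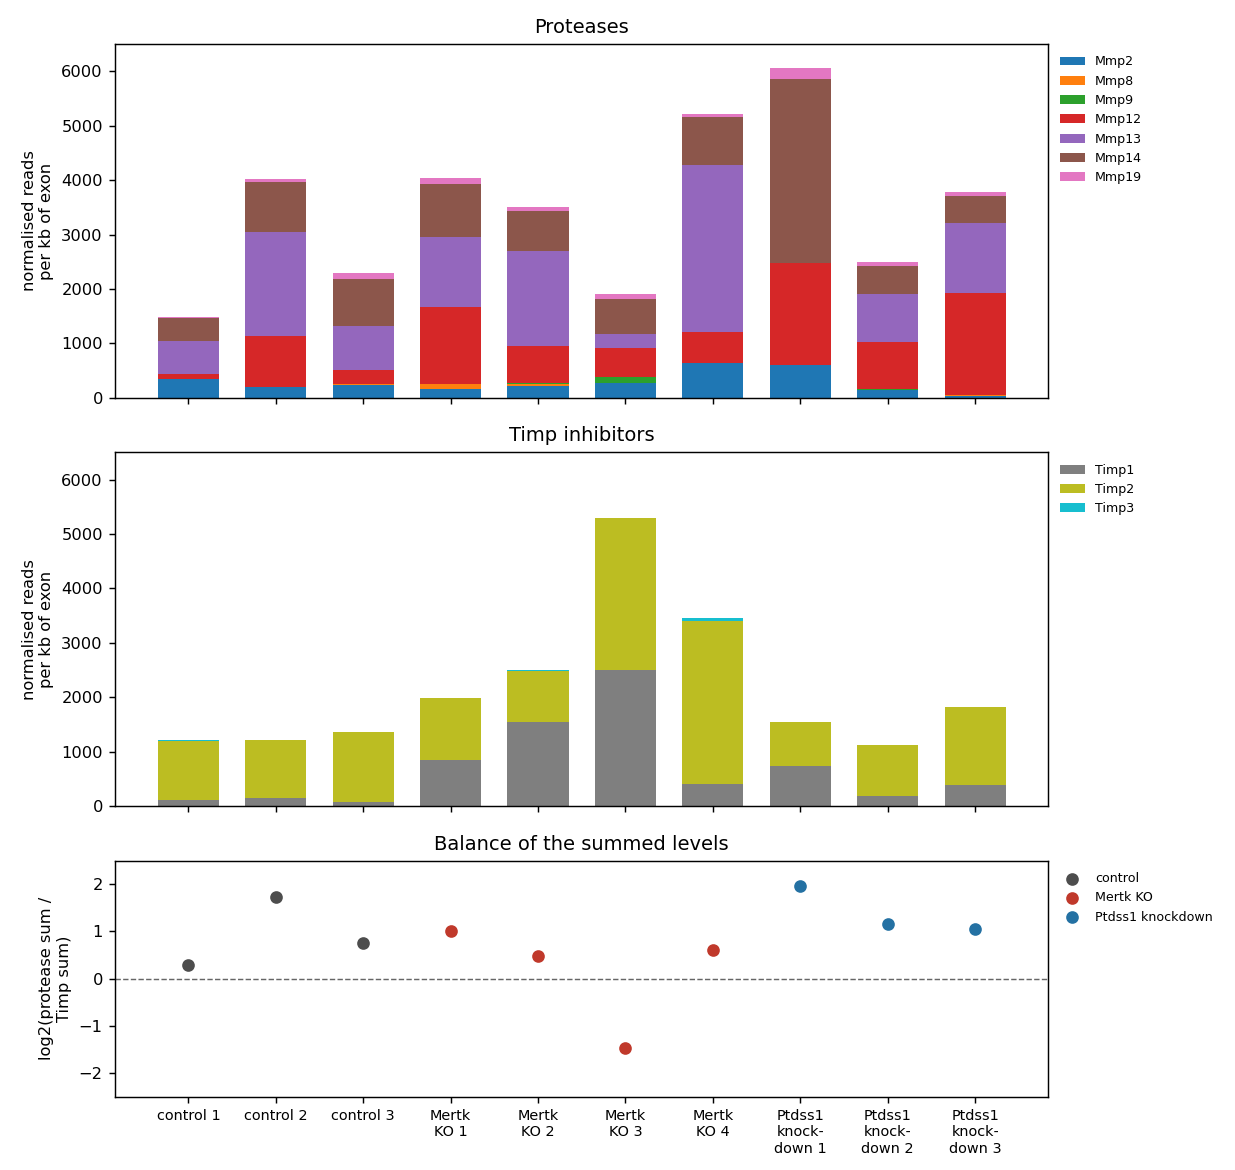
Stacked levels of the 7 proteases (top) and the 3 Timp genes (middle), in normalised reads per kilobase of exon, and the log2 ratio of the summed levels (bottom) for each of the 10 libraries. The Timp1 part is small in control (5.37 to 11.8% of the Timp sum), the Timp sum is above control in all 4 Mertk KO libraries, and the log2 ratio is below 0 only in Mertk KO replicate 3 (-1.47).

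Genes that act with these proteases were described from 7 lists of 62 genes, of which 34 could be tested. None was called in any comparison (limma adjusted p). In Mertk KO 20 of the 34 were above control and 14 below, beside 50.9% of all genes above. In Ptdss1 knockdown they were 21 and 13, beside 48.0% above, and between Mertk KO and Ptdss1 knockdown 15 were above 0 and 19 below, beside 54.0% above. At an unadjusted limma p below 0.05 there were 2 higher and 0 lower (beside 2.06% of all genes in either direction), 1 higher and 2 lower (2.90%), and 5 higher and 0 lower (3.73%).

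Plasmin, made by the plasminogen activators, activates several Mmp precursors. Of the 9 genes of that list 8 were tested, with 6 above and 2 below control in Mertk KO (median log2 fold change of 1.48) and 2 above and 6 below in Ptdss1 knockdown. Plau, the urokinase activator, had 71, 253 and 140 reads in control, 244, 636, 912 and 531 in Mertk KO, and 3, 153 and 519 in Ptdss1 knockdown. On the normalised scale all 4 Mertk KO libraries were above control (as for 3.00% of all genes), with a log2 difference of 2.07 (SE 1.46, limma adjusted p = 1.0). Anxa2, a surface receptor for plasminogen, differed by 1.08 (SE 0.46, limma adjusted p = 1.0), also with 4 of 4 Mertk KO libraries above control. Plat, the tissue activator, had 1220 reads in Mertk KO replicate 4 and 0 to 36 elsewhere.

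Of the 8 surface partners of Mmp and Timp proteins, all were tested, with 6 above and 2 below control in Mertk KO. Lrp1 (log2 difference of 1.11, SE 0.54) and Itgb1 (0.63, SE 0.42) were each above control in 4 of 4 Mertk KO libraries, as for 3.00% of all genes. Neither was called. Cd63, the tetraspanin that binds Timp1 at the cell surface, had a log2 difference of 0.053 (SE 0.36) between Mertk KO and control, -0.89 (SE 0.38, limma adjusted p = 0.841) between Ptdss1 knockdown and control, and 0.94 (SE 0.36, limma adjusted p = 0.805) between Mertk KO and Ptdss1 knockdown. Sdc1, a heparan sulphate proteoglycan that is also made by epithelial cells, had 0, 0 and 26 reads in control, 170, 82, 124 and 299 in Mertk KO, and 0, 43 and 39 in Ptdss1 knockdown. All 4 Mertk KO libraries were above control, as for 3.00% of all genes (log2 difference of 5.72, SE 1.87, limma adjusted p = 1.0). Their normalised level of Cdh1 was above control too, as for 3.00% of all genes, while Epcam was at 0 in both groups. Of the 6 epithelial and tumour cell markers tested, 3 were above and 3 below control in Mertk KO. The part of epithelial RNA in the Sdc1 values was not tested.

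Proprotein convertases cut the precursor of Mmp14. Furin, 1 of 2 tested in that list, had 25904 reads in Ptdss1 knockdown replicate 1 and 553 to 1702 in the other 9 libraries. Mmp25, a protease anchored to the membrane, had 9718 reads in that library and 62 to 526 elsewhere. Of 16 other matrix metalloproteinases, 2 could be tested, Mmp25 and Mmp3, and none was called. Of the ADAM and ADAMTS proteases, 6 of 12 were tested. Adam15 was above control in 3 of 3 Ptdss1 knockdown libraries (as for 3.32% of all genes), with a log2 difference of 1.76 (SE 0.66, limma adjusted p = 0.841) that was 1.02 without Ptdss1 knockdown replicate 1. Adam9 was above Ptdss1 knockdown in 4 of 4 Mertk KO libraries (as for 2.91% of all genes), with a difference of 2.22 (SE 0.72, limma adjusted p = 0.805) that was 0.90 without the same library. Among the AP-1 and Ets factors 8 of 9 were tested, with Jun at 1.10 (SE 0.57) and Fosl2 at -0.76 (SE 0.48) in Mertk KO against control, the latter -0.36 without Mertk KO replicate 4. None of the other 4 inhibitors of matrix proteases listed, Timp4, Reck, Tfpi2 and A2m, passed the filter.

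The genes whose log2 levels followed each member most closely over the 10 libraries differed from member to member. These are descriptions, picked as the highest values among 11176 genes compared, over libraries that also differ in depth and gene detection. Timp1 was followed by Spp1, which encodes the secreted protein osteopontin (Pearson r = 0.91), and by Foxj2 (r = 0.88), both at their lowest in control. Timp2 was followed by Cd68, a macrophage lysosomal protein, and Dlec1 (r = 0.92 each), and Mmp9 by Cd209a and the chemokine receptor Cxcr3 (r = 0.98 each). Mmp13 was followed by the DNA repair gene Ercc1 (r = 0.99), which like Mmp13 was at the bottom of its range in Ptdss1 knockdown replicate 1, with 1 read. Mmp14 was followed by Spidr (r = 0.98), Mmp12 by Timm50 (r = 0.92), Mmp19 by Copg2 (r = 0.92), Mmp2 by Cyp4f18 (r = 0.90), Mmp8 by Lrrc39 (r = 0.98) and Timp3 by Zbtb7c (r = 0.97). Mmp14 and Spidr were both highest in Ptdss1 knockdown replicate 1. Lrrc39 had at most 49 reads in a library and Zbtb7c at most 72. Between members the highest value was 0.76, between Mmp12 and Mmp19, which were both lowest in control replicate 1.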

How the data were processed

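RNA was made into cDNA with a low-input kit (16 PCR cycles) and read as single reads of 75 bases, per the labels' protocols. The submitters' processing notes name STAR, RSEM and mm10. The deposited values are log2(normalised reads + 1), where the authors divided each library's counts by a size factor. Undoing the logarithm gave whole reads (within 0.01) for all values, and these are the reads printed here. As RSEM estimates counts, they may be rounded estimates. Gene positions and exon lengths came from GENCODE M21, which held all 21938 identifiers.

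The deposited log2 values were tested with limma 3.58.1 (R 4.3.3; trend, robust moderation) on all 10 libraries in 1 fit with a mean per group. Genes with at least 10 reads in at least 3 libraries were kept (11564, all 10 members among them). Tests were two-sided, and p-values were adjusted over all genes tested (Benjamini-Hochberg, threshold 0.05). Because 1 was added before the logarithm, fold changes of low genes are understated. The fit was tested on simulated data. A planned quasi-likelihood count test was replaced by limma because the files hold log values. Members and lists were chosen with earlier results of these data known. Named genes are the members, up to 3 genes of smallest p per list, and the genes of highest correlation with each member. Leaving out Mertk KO replicates 2 and 4 and the length of 1 transcript per gene were alternatives chosen after seeing the data. Reads are PCR copies without molecular identifiers.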

Additional observations from a re-analysis of the deposited data

Results flagged for a closer look

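Mmp9 in Mertk KO had 1 library far from the others. Its log2 level was 8.49 in replicate 3 and 0, 1.40 and 0 in replicates 1, 2 and 4. The gap between replicate 3 and the nearest library was 0.835 of the range of the group, above Dixon's 95% critical value for a group of 4. Of 11 values examined this way (the 10 genes and the balance in Mertk KO), 1 was past that value. For normally spread values chance passes about 1 in 20. Mmp9 had 0 reads in replicates 1 and 4 and 2 in replicate 2, so that rate does not apply to it. It also passed the filter only through replicate 3 and Ptdss1 knockdown replicates 2 and 3, so the flag is a description only. In the same library Cd209a, a dendritic cell marker, had 9573 reads against 0 to 30 in the other Mertk KO libraries.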

How the results depend on the processing

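Under array weights 2 member genes were called in Mertk KO against control, 1 in Ptdss1 knockdown against control and 1 in Mertk KO against Ptdss1 knockdown, beside 25, 2 and 35 genes in all. No member was called under any other setting run, and leaving out each library in turn gave 0 member calls. For Mertk KO against control, the genes called in all (2 here) were 0 with upper-quartile factors, without a filter or with a filter of 50 reads, 1 without robust moderation or without Mertk KO replicates 2 and 4, and 0 to 4 when 1 library was left out: 0 without any control library or Mertk KO replicate 1, 2 or 3, 1 without Mertk KO replicate 4 or Ptdss1 knockdown replicate 3, and 4 without Ptdss1 knockdown replicate 1. Mertk KO against Ptdss1 knockdown had 1 call without control replicate 2 and Ptdss1 knockdown replicate 1.

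Of 30 member fold changes, 13 kept their sign in all 22 settings. The 2 of Mmp9 against control kept it in the 19 settings run. Mmp9 fell below the filter without Mertk KO replicate 3 or Ptdss1 knockdown replicate 2 or 3, and its sign against control follows from that filter. In Mertk KO against control the sign turned for Mmp2 (-0.42 with array weights, -0.034 without control replicate 2 and Ptdss1 knockdown replicate 1, -0.25 without Mertk KO replicates 2 and 4), and, without the latter, for Mmp13 (-0.76) and Timp3 (-0.75). In Ptdss1 knockdown against control it turned with array weights or without those 2 libraries for Mmp13 (0.56, 0.58) and Mmp14 (-0.16, -0.25), and with array weights for Timp2 (0.14). Between Mertk KO and Ptdss1 knockdown it turned for Mmp14 (0.68, 0.66) and Mmp19 (0.22, 0.24) in the same settings, Timp2 (-0.097, array weights) and Mmp9 (0.43, without Mertk KO replicates 2 and 4). Leaving out 1 library, the ranges that crossed 0 were -0.25 to 0.39 for Mmp2, -0.24 to 0.94 for Mmp13, -0.15 to 0.41 for Mmp14 and -0.16 to 2.53 for Mmp19 in Mertk KO. In Ptdss1 knockdown they were -1.89 to 0.17 for Mmp2, -1.37 to 1.17 for Mmp8, -3.67 to 0.11 for Mmp13, -0.45 to 0.93 for Mmp14 and -0.39 to 0.016 for Timp2, and between those groups -0.028 to 2.03 for Mmp2, -0.73 to 0.66 for Mmp14 and -0.58 to 0.24 for Mmp19. The cause was not tested.

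Without Timp2 the balance differences from control were -2.80 in Mertk KO and -1.06 in Ptdss1 knockdown; leaving out 1 library gave -1.08 to -0.22, 0.15 to 0.87, and -1.52 to -0.69 between Mertk KO and Ptdss1 knockdown. Upper-quartile factors moved the median fold change of all genes from -0.053 to -0.24 in Ptdss1 knockdown against control and from 0.11 to 0.30 in Mertk KO against Ptdss1 knockdown. The planned quasi-likelihood and negative binomial Wald tests on counts were not run. No paired analysis was possible because each library number in the labels occurs once. Mmp9 and Timp3 had few reads in most libraries, and their 95% intervals were the widest of the 10 genes in all 3 comparisons.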
